A study of Danio rerio with 4 samples.

Results

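Sibling embryos of the *goosepimples* (*gsp*) and *romeharsha* (*rhs*) lines of zebrafish were compared with each other, with no mutant in the comparison. The members were the rows (transcripts) of the deposited table that reached 100 in each sibling library, and 13966 of 27423 rows met this minimum. They came from 2 of the 4 libraries of the series. For each row the log2 ratio of *gsp* siblings over *rhs* siblings was centred on its median over the kept rows, and this is called the centred log2 ratio here. The same ratio between the mutants of the lines was set beside it over the 13633 rows with at least 100 in all 4 libraries. A positive value means higher in the *gsp* line and a negative value lower in it.

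Both lines carry mutations that round up cells of the periderm, the outer layer of the embryonic skin. The *gsp* locus encodes Myosin Vb, and the sources used here do not give the gene behind *rhs*. Siblings are the embryos of a cross of heterozygous carriers without the phenotype, so each sibling library pooled heterozygous with homozygous wild-type embryos. The mutant libraries pooled homozygous *gsp* or *rhs* embryos of the same crosses. Mutants were separated at 43 hours post fertilization (hpf), and whole embryos were taken at 48 hpf, 20 per library by the labels, while the study's methods give a larger number. The labels name no allele and no strain for either line, and give no hour of fixation. Genetic background, developmental stage, hour of fixation and library therefore cannot be told apart between the lines.

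At this age a zebrafish embryo is late in its embryonic period. Photoreceptors of the eye are starting to differentiate, the intestine is forming a lumen, the hatching gland is about to release its proteases, and progenitors of the brain and retina are leaving the cell cycle. Transcripts of such tissues change within hours, and the clock genes of zebrafish tissues follow light directly. Libraries of whole embryos mix all of these tissues, and fewer cells of a type cannot be told apart from less RNA per cell.

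Each group had 1 library, so no difference between the lines has a replicate check, and the differences are described without a test. The deposited values were read as estimated counts. They summed to between 106188690 and 118680429 per library, and between 10709 and 10726 rows per library were listed at 1, the lowest value in the table. Intervals are exact 95% Clopper-Pearson intervals of the ratio of rounded counts and cover counting error only. Of the 13457 rows left out, 10008 were at 1 in both siblings. The minimum falls where ratios are wide, since 52.8% of the 159 rows whose lower sibling value lay between 100 and 110 were past the threshold, beside 61.3% of the 124 rows between 90 and 100.

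A row was counted as higher or lower where its centred log2 ratio reached 0.57 in either direction, which is the fold limit that the study's methods set between its siblings and is called the threshold here. Among kept rows, 1458 were higher in *gsp* siblings (10.4%) and 1191 lower (8.53%), together 19.0%. At 2-fold, 764 rows were higher (5.47%) and 557 lower (3.99%), together 9.46%. Rows higher in *gsp* made up 55.0% of those past the threshold, and 42.4% with the authors' normalized columns, in which the median of the kept rows lies at -0.11. Directions of gene groups below are relative to the centred median.

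The size of the difference went with a label that the deposited table gives each transcript in each line, FL or MO, whose meaning is not given in the sources used here. Of the kept rows, 8414 were labelled FL in both lines, and 8.83% of these were past the threshold, 430 higher in *gsp* siblings (5.11%) and 313 lower (3.72%). The 4369 kept rows labelled MO in both lines had 35.8% past it, 839 higher and 723 lower. Of the 647 kept rows labelled MO in *gsp* and FL in *rhs*, 185 were higher in *gsp* siblings and 1 was lower. In the reverse case, of 536 kept rows with MO in *rhs*, 154 were lower in *gsp* siblings and 4 higher. A label of MO in 1 line thus went with a higher value in that line.

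**Figure D1:**
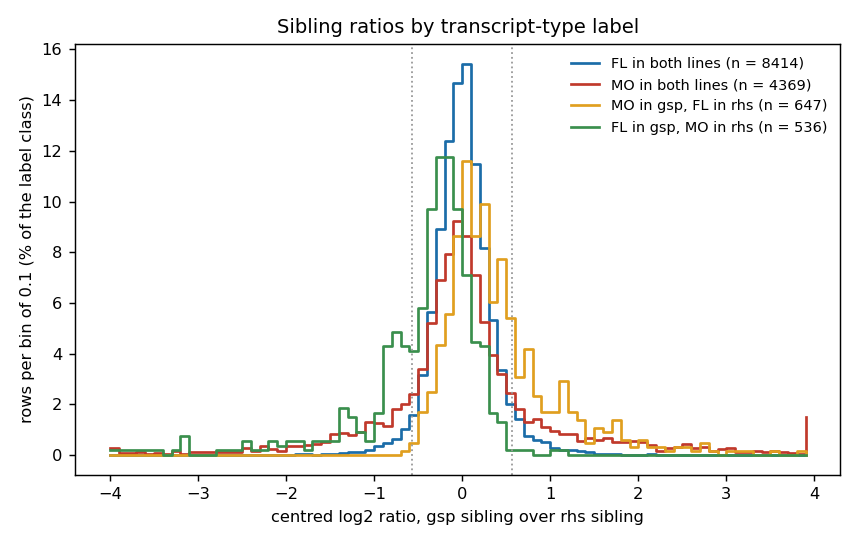
Distribution of the centred log2 ratio of *gsp* siblings over *rhs* siblings (x axis, bins of 0.1, values beyond 4 in either direction placed in the outer bins), as the percentage of the rows of each label class (y axis). Dotted lines mark the threshold of 0.57. Rows labelled FL in both lines (n = 8414) are the narrowest group, with 8.83% past the lines, and classes with an MO label in 1 line lie towards that line.

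Nearly all of the largest ratios carried an MO label. It was on 72.0% of the 2649 rows past the threshold, 87.1% of the 1321 past 2-fold and 99.5% of the 184 past 8-fold. Of the 30 named genes with the highest and lowest ratios, 29 carried it. The gene of apolipoprotein B, *apob*, the main protein of yolk and liver lipoproteins, had 25623 in *gsp* siblings and 363 in *rhs* siblings, with 21155 and 610 in *gsp* and *rhs* mutants, a centred log2 ratio of 6.19. *akt1s1*, a subunit of the growth-controlling mTOR complex, had 10023 and 193 in the siblings and 9932 and 172 in the mutants, a ratio of 5.75. In the other direction stood *ppial*, a cyclophilin gene, with 205 and 82304 in the siblings and 182 and 69573 in the mutants, a ratio of -8.60. The cartilage collagen gene *col9a3* had 268 and 25094 in the siblings, 271 and 16539 in the mutants and a ratio of -6.49. The cornified envelope gene *evpl* had 541 and 11562, then 695 and 16888, and a ratio of -4.36. In each of these 5 genes sibling and mutant of a line lay together and far from the other line.

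Transcripts that the minimum leaves out showed the same in its extreme form. In 414 rows *gsp* siblings had at least 100 and *rhs* siblings were listed at 1, and 413 of these rows were labelled MO in *gsp* and FL in *rhs*. The mutants did likewise in 373 of them. In 388 rows *rhs* siblings had at least 100 and *gsp* siblings were listed at 1, of which 384 were labelled the other way round and 326 recurred in the mutants. Genes that every cell uses were among them. *eif3b*, a translation initiation factor, was listed at 62899 in *gsp* siblings, 67564 in *gsp* mutants and 1 in both *rhs* libraries. The epithelial adhesion gene *epcam* had 44135, 93323 and 1 in both *rhs* libraries. *ndufab1*, a subunit of respiratory complex I, had 18542 and 13599 in *rhs* siblings and mutants and 1 in both *gsp* libraries.

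The actin nucleation gene *actr3* has 2 rows on chromosome 9 of danRer7. The row from 58175048 to 58179998 had 18569 and 19172 in *gsp* siblings and mutants and 1 in both *rhs* libraries, and the row from 58106895 to 58110904 had 1 in both *gsp* libraries and 3079 and 3910 in *rhs* siblings and mutants. Each line thus had its reads on a different row of the same gene. This was the only one of 238 named genes with several rows that did so at 100 or more. No row labelled MO in a line was at 1 in both libraries of that line, and all 9935 rows at 1 in the 4 libraries were labelled FL in both. The part of the labelling in these values was not tested. The gene groups are therefore described over the rows labelled FL in both lines, a restriction chosen after seeing the data. Their counts stand beside shares of 5.11% higher and 3.72% lower over all such rows.

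*myo5b*, on chromosome 21 from 21508888 to 21662553, was among the rows labelled FL in *gsp* and MO in *rhs*. It was listed at 1 in *gsp* siblings and in *gsp* mutants, at 87.8 in *rhs* siblings and at 193 in *rhs* mutants. The value of 1 in *gsp* siblings, which carry a wild-type copy, puts it with the 582 rows of that label at 1 in both *gsp* libraries. The adjoining LOC100536519, which the table describes as like Myosin Vb and which was chosen after its values were seen, had 1946 in *gsp* siblings and 2246 in *rhs* siblings, with 1851 and 3351 in the mutants, and it carried MO in both lines. The epidermal transcription factor gene *grhl3* had 1506 and 1276 in the siblings (centred log2 ratio 0.29), and E-cadherin, *cdh1*, had 11430 and 11192 (0.08). Both genes were under the threshold between the siblings. *grhl3* was labelled MO in both lines and *cdh1* FL in both.

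Line differences of the siblings recurred in the mutants to a degree that also went with the label. Over rows labelled MO in both lines and kept in all 4 libraries, 664 of 785 rows higher in *gsp* siblings (84.6%) and 521 of 696 lower ones (74.9%) were past the threshold the same way between the mutants. Over rows labelled FL in both lines these were 183 of 373 higher rows (49.1%) and 169 of 303 lower rows (55.8%), where 9.40% of all such rows were higher and 7.05% lower in *gsp* mutants. Only 7 and 12 of them were past the threshold the opposite way. At 2-fold or more in the siblings, 59 of 78 higher and 46 of 63 lower rows recurred. Over the 8193 rows labelled FL in both, Pearson's r between the ratios was 0.492 and Spearman's rho 0.388, and over the 4260 labelled MO in both they were 0.924 and 0.775. Rows of a library share its depth and its embryos, so these describe 4 libraries only.

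**Figure D2:**
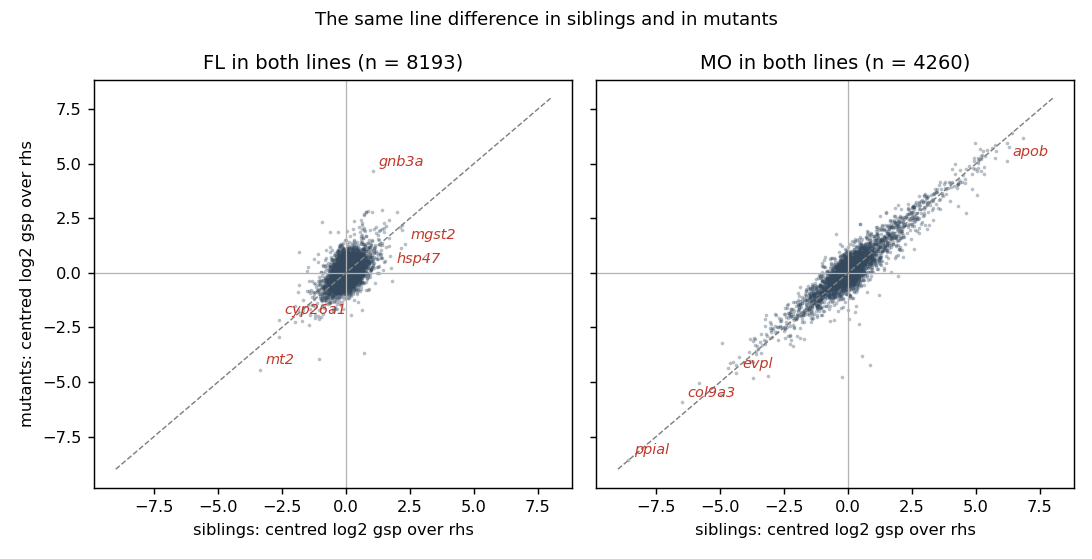
Centred log2 ratio of *gsp* over *rhs* in siblings (x axis) and in mutants (y axis), 1 point per row with at least 100 in all 4 libraries, for rows labelled FL (left, n = 8193) or MO (right, n = 4260) in both lines. The dashed line marks equal ratios, which rows labelled MO follow closely (Pearson's r 0.924) and rows labelled FL less so (0.492).

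The spread of the ratios puts the line difference beside that of the mutants. Over rows labelled FL in both, the SD of log2 ratios was 0.347 between the siblings of the lines, 0.424 between *gsp* mutants and siblings, 0.490 between *rhs* mutants and siblings and 0.466 between the mutants of the lines. Among these rows the siblings were the most alike pair, but the restriction was chosen after seeing that this label went with small line differences. Over rows of all labels with at least 100 in all 4 libraries the siblings were not the most alike pair. The sibling SD was 0.733 there, above that between mutants and siblings of either line (0.419 in *gsp*). Over rows labelled MO in both, the sibling SD was 1.14, against 0.416 and 0.521 between mutants and siblings of 1 line. The spread within a line hardly differed with the label, while that between the lines was 0.347 with FL and 1.14 with MO.

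Among the FL rows the largest ratios were few. The metallothionein gene *mt2*, whose product binds zinc and copper, stood lowest, on chromosome 18 from 17193804 to 17195114. It had 1243 in *gsp* siblings and 13279 in *rhs* siblings, and 746 and 16282 in the mutants, so it was 10.3-fold lower in *gsp* siblings (interval 9.71 to 10.9). Highest stood *vil1l*, a villin gene of the actin core of microvilli, on chromosome 9 from 45978153 to 46015852. It had 584 in *gsp* siblings and 104 in *rhs* siblings, 541 and 72.8 in the mutants, and was 5.84-fold higher in *gsp* siblings (4.72 to 7.25). Of the following genes of the liver and of detoxification, *mgst2* was named by rule and *pklr* was chosen after its values were seen. *mgst2*, a microsomal glutathione transferase, had 8838 and 1832 in the siblings and 9340 and 3742 in the mutants, 5.01-fold higher in *gsp* siblings. *pklr*, the pyruvate kinase of liver and red cells, had 4668 and 1063, then 5475 and 1400, and was 4.56-fold higher. *mt2*, *mgst2* and *pklr* were past the threshold in the mutants too, and for *vil1l* the *rhs* mutants were under the minimum.

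Genes of photoreceptors lay on the higher side in *gsp* siblings. Of the table's 49 phototransduction genes, 12 were kept as FL rows, of which 6 were higher and 0 lower, with a median of 0.56 beside 0.00 over all FL rows, and all 12 lay above 0. Rhodopsin, *rho*, the visual pigment of rods, on chromosome 8 from 55706883 to 55708430, had 2696 in *gsp* siblings, 1234 in *rhs* siblings, 2155 in *gsp* mutants and 497 in *rhs* mutants. It was 2.27-fold higher in *gsp* siblings (2.12 to 2.43). The rod transducin gene *gnat1* had 434 and 255 in the siblings and 411 and 159 in the mutants, 1.76-fold higher (1.51 to 2.07). The cone transducin subunit *gnb3a* had 5835 and 2890, then 4750 and 188, 2.10-fold higher. *pde6g*, the inhibitory subunit of the photoreceptor phosphodiesterase, had 6540 and 4469, then 5082 and 1859. *gngt1*, another transducin subunit, was also past the threshold, and all 6 recurred in the mutants, where the median was 0.98. In all 6 the *rhs* mutants were the lowest of the 4 libraries.

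The list of retinal transcription factors and visual cycle genes had members on both sides. Over 24 kept FL rows 6 were higher and 3 lower in *gsp* siblings, with a median of 0.31 and 0.86 in the mutants. *crx*, which drives photoreceptor differentiation, had 14592 and 8712 in the siblings and 13911 and 2014 in the mutants, a centred log2 ratio of 0.80. *nr2e3*, a nuclear receptor of photoreceptor precursors, had 3137 and 1997, then 3161 and 816. *atoh7*, which sets the fate of the early retinal ganglion cells, went the other way with 882 and 2077, then 1133 and 1760, a ratio of -1.18. *rx1*, a gene of retinal progenitors, was also lower, at 1364 and 2274 in the siblings (-0.68) and 1627 and 1818 in the mutants (-0.15). Visual cycle genes also lay on both sides. *lrata*, which esterifies retinol, was the other lower gene, at 2657 and 5826, then 1168 and 4653, while *rdh8l*, a retinol dehydrogenase gene, was higher, at 662 and 342, then 283 and 238.

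Genes of the intestine and pancreas lay on both sides of 0, with the largest ratios on the higher side. Of 42 in the table, 20 FL rows were kept, with 7 higher, 1 lower and a median of 0.11. Above 0 lay 13 rows and below it 7. Besides *vil1l* the higher ones included the intestinal homeobox gene *cdx1b*, with 368 and 155 in the siblings and 364 and 130 in the mutants, 2.47-fold higher (2.04 to 2.99). Its paralog *cdx1a* had 246 and 113, then 220 and 109. Trypsin, *try*, a pancreatic protease, had 535 and 220, then 485 and 126, 2.53-fold higher (2.15 to 2.97). *pdx1*, a transcription factor of the pancreas and duodenum, had 314 and 169, then 291 and 179. Between the mutants 7 rows were higher and 3 lower, with a median of 0.02. The 1 lower gene of the siblings did not recur there, while 5 of the 7 higher ones did. *vil1l* could not be counted among these, since *rhs* mutants were under the minimum for it. Insulin, *ins*, differed little, with 1467 and 1398 in the siblings.

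Claudins, the strands of tight junctions, showed a like set. Of 54 genes of the list 34 FL rows were kept, 7 higher and 1 lower, with a median of 0.22. *cldn15la*, a claudin of the zebrafish gut, had 1983 in *gsp* siblings, 1018 in *rhs* siblings, 1607 in *gsp* mutants and 589 in *rhs* mutants, 2.02-fold higher (1.87 to 2.18). Its relatives followed it, *cldn15lb* with 358 and 188, then 289 and 87.0, and *cldn15a* with 1167 and 743, then 921 and 461. *cldn7a* had 1020 and 436, then 1398 and 368, and *cldn2*, whose row overlaps 1 other, had 292 and 133, then 191 and 57.5. In these 5 genes both *gsp* libraries lay above both *rhs* libraries, although *rhs* mutants were under the minimum for *cldn15lb* and *cldn2*. Of the 7 higher rows of the list 3 recurred in the mutants, where *cldn15lb* and *cldn2* could not be counted. The 1 lower row recurred too. Over all FL rows kept in all 4 libraries, 49.1% of the higher ones recurred. The list median was -0.22 between the mutants. *cldne*, a claudin of the skin, had 21966 and 20769 in the siblings but 65161 and 90962 in the mutants, and *cldnb* had 10294 and 9747, then 42361 and 65058. In both of these the mutants of either line lay above its siblings.

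**Figure D3:**
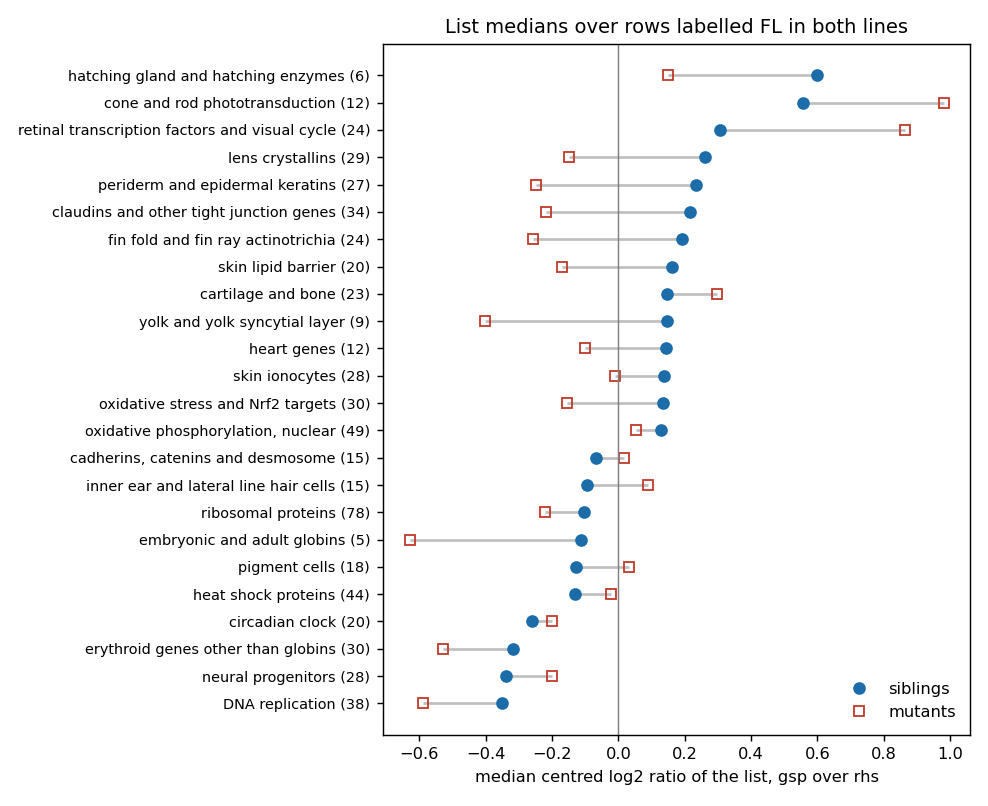
Median centred log2 ratio of *gsp* over *rhs* (x axis) in siblings (filled circles) and mutants (open squares) for the 10 lists with the lowest and the 14 with the highest sibling medians among lists with at least 5 kept rows labelled FL in both lines, with the number of those rows in brackets. Phototransduction lies on the positive side in both (0.56 and 0.98) and DNA replication on the negative side in both (-0.35 and -0.59), while the keratin and claudin lists cross 0.

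Genes of the skin surface lay slightly to the higher side in *gsp* siblings and to the lower side in *gsp* mutants. Of 35 periderm and keratin genes 27 FL rows were kept, 5 higher and 0 lower, with a median of 0.24 in the siblings and -0.25 in the mutants. Among the 5, *s100t* (0.89) is not a keratin gene and is also in the list of inner ear and lateral line hair cells. *krt4*, a keratin that the periderm makes in quantity, had 3665460 in *gsp* siblings, 2883598 in *rhs* siblings, 1961954 in *gsp* mutants and 3332159 in *rhs* mutants. Its centred log2 ratio was 0.40 in the siblings and -0.76 in the mutants, and it was the *gsp* mutants that were lowest. *krt15* had 18388 and 8802, then 13340 and 7986, and *s100a10a*, a partner of annexins, 1481 and 481, then 1105 and 208, so these 2 recurred. Keratin genes have close paralogs, and the row of *krt15* overlaps 1 other.

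All 6 kept FL rows of the hatching gland list lay above 0, with 3 past the threshold and a median of 0.60. The hatching enzyme gene *he1a*, a protease that softens the chorion, had 50207 in *gsp* siblings and 26530 in *rhs* siblings, but 47965 and 42921 in the mutants. Its near-identical neighbour *he1b* had 21787 and 15888, then 18797 and 22127, and counting may have divided reads between them. *prdm1a*, a transcription factor that specifies the gland, had 4549 and 2929, then 6296 and 5630. None of the 3 past the threshold in the siblings was past it in the mutants, where the median was 0.15. In *he1a* it was *rhs* siblings that lay apart from the other 3 libraries.

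Lens crystallins had a median of 0.26 over 29 FL rows, with 4 higher and 1 lower. Those higher were gamma M crystallins, which give the fish lens its density, and copies of this family are alike enough for reads to be shared. *crygm2d11* had 16909 and 11386 in the siblings and 9816 and 6791 in the mutants, a ratio of 0.62. *crygm2f* had 509 and 202, then 229 and 137, a ratio of 1.38. The beta crystallin gene *crybb1l3* was lower, with 845 and 1702, then 258 and 1039. Of the higher ones 1 recurred in the mutants, whose median was -0.15. *crygm2a*, also higher in *gsp* siblings, could not be counted, with 64.95 and 52.87 in the mutants. *crygm2d11* was just under the threshold there (0.54).

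Cartilage and bone genes had 2 higher of 23 FL rows, and 0 lower, with a median of 0.15. Since 5.11% of all FL rows were higher, a count this small is close to that share. With all labels, 4 of 34 rows were higher and 2 lower, with a median of 0.06. The 2 lower were *col9a3* (-6.49) and *hapln1a* (-2.16), both with an MO label and with larger ratios than the FL rows. Collagen X, *col10a1*, a collagen of skeletal cells, had 20378 and 7180 in the siblings and 13495 and 5976 in the mutants, 2.95-fold higher in *gsp* siblings (2.87 to 3.03). Matrilin 1, *matn1*, of the cartilage matrix, had 3392 and 1334 in the siblings, and 1997 and 66.8 in the mutants. *rhs* mutants were under the minimum for *matn1*, so it stands outside the count of recurring rows.

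DNA replication genes lay on the lower side in *gsp* siblings. Of 38 kept FL rows 0 were higher and 10 lower, the median was -0.35, and 37 lay below 0. *mcm5*, a subunit of the replicative helicase, had 13350 and 21163 in the siblings and 12989 and 21545 in the mutants, a ratio of -0.61 (1.53-fold lower in *gsp* siblings). Its partners *mcm4* and *mcm6* had ratios of -0.62 and -0.62. *pole*, the leading-strand polymerase, had 1911 and 3537, then 2578 and 2919. *pcna*, the sliding clamp, had 76811 and 100357, then 61426 and 98561, which was under the threshold in the siblings (-0.33). The mutants had a median of -0.59 with 21 of 38 lower. Mitosis genes differed from this: 0 of 36 FL rows were past the threshold and the median was 0.02. *cdk1*, the kinase of mitotic entry, had 13151 and 12417 in the siblings. With all labels, 15 of 51 replication rows were lower and 2 higher, the lowest being *cdc45* at 1265 and 12058, an MO row in *rhs*.

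Genes of neural progenitors lay on the lower side in *gsp* siblings too. Of 28 kept FL rows 0 were higher and 8 lower, the median was -0.34, and 27 lay below 0. Among the lower ones were ligands and targets of Notch signalling, in which Delta ligands on a new neuron hold its neighbours back as progenitors. Among ligands, *dla* had 6667 and 11480 in the siblings and 8293 and 11122 in the mutants (-0.73 between siblings), and *dld* had 4989 and 8605, then 5749 and 8381 (-0.73). Among targets, *her4.2* had 1735 and 3636, then 1855 and 2633 (-1.01), and *her4.3*, a near copy of it, 1682 and 3595, then 2204 and 2544 (-1.04). The proneural genes *neurog1* and *ascl1a* had 2284 and 3939 and 2376 and 3982 in the siblings. In the mutants the list median was -0.20 and 2 of the 8 were past the threshold. These 2 were *zic2b* (1623 and 2916 in the siblings) and *her12* (3643 and 5635). Among MO rows, the receptor gene *notch1a* has 2 that lay on opposite sides (-1.02 and 0.56), and *nes*, the intermediate filament nestin, was higher (1.16).

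Circadian clock genes lay on the lower side in *gsp* siblings. Over 20 FL rows 0 were higher and 7 lower, with a median of -0.26. The repressor gene *per1b* had 2431 and 8005 in the siblings and 2887 and 6763 in the mutants, 3.17-fold lower in *gsp* siblings (3.03 to 3.32). The cryptochrome *cry1b* had 733 and 1688, then 791 and 1384, and *cry1a*, which light induces in zebrafish, 2642 and 5174, then 2876 and 4228. *cry5*, a photolyase gene of the same family, had 581 and 1293, then 592 and 861. *tef*, an output transcription factor, had 12241 and 19086, then 9472 and 15054. *clock* itself had 131 and 237 in the siblings and 189 and 181 in the mutants, so it did not recur. In all, 3 of the 7 recurred. With all labels, 11 of 33 rows were lower and 2 higher. The lower rows with an MO label were *cry3*, *cry2a*, *per3* and *per2* (-1.16, -1.08, -1.06 and -0.84), and the higher ones were *rorca* and *hlfb* (1.09 and 0.99).

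Red blood cell genes other than globins lay on the lower side in *gsp* siblings, with 8 lower and 1 higher of 30 FL rows and a median of -0.32. All 8 recurred in the mutants, whose median was -0.53. *gata1a*, the leading erythroid transcription factor, had 373 in *gsp* siblings, 621 in *rhs* siblings, 312 in *gsp* mutants and 699 in *rhs* mutants. The haem synthesis genes *hmbsb* (3442 and 6677, then 3042 and 6422) and *fech* (179 and 352, then 177 and 430) were lower, as was band 3, *slc4a1a*, the anion exchanger of the red cell membrane (23096 and 37276, then 16078 and 41090). Of 5 globin rows only *hbbe3*, an embryonic beta globin, was past the threshold, at 30936 and 67026, then 25577 and 83272. *hbae1*, an embryonic alpha globin, was at 144131 and 161778 in the siblings (-0.11), and all 5 globins were lower in *gsp* mutants.

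**Figure D4:**
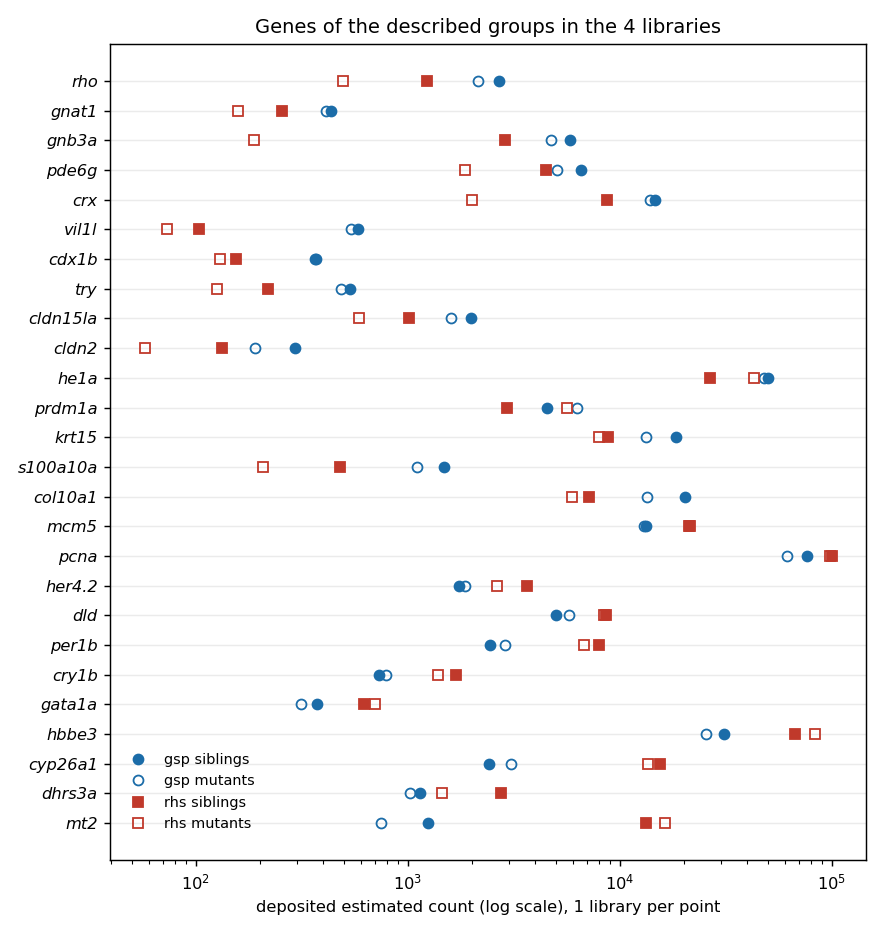
Deposited estimated count (x axis, log scale) of 26 genes labelled FL in both lines in the 4 libraries, with circles for *gsp*, squares for *rhs*, filled symbols for siblings and open symbols for mutants. For *per1b*, *cyp26a1* and *mt2* both *gsp* libraries lie below both *rhs* libraries, for *rho* and *vil1l* above them, and for *he1a* only *rhs* siblings lie apart.

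Retinoic acid genes were grouped after their values were seen, so their count is a description of that choice. Over 24 FL rows 6 were lower and 3 higher, with a median of -0.02. *cyp26a1*, the main enzyme that breaks down retinoic acid, is on chromosome 12 from 9708963 to 9712557. It had 2421 in *gsp* siblings, 15478 in *rhs* siblings, 3056 in *gsp* mutants and 13561 in *rhs* mutants, 6.16-fold lower in *gsp* siblings (5.90 to 6.43). Its relatives *cyp26b1* and *cyp26c1* had 4021 and 7125 and 2108 and 4080 in the siblings. *dhrs3a* and *dhrs3b*, which return retinaldehyde to retinol, had 1145 and 2738 and 2832 and 6510. With *lrata*, given above, these were the 6 lower rows of the list. *aldh1a2*, which makes retinoic acid, had 5689 and 5244 (0.17). Among the higher ones was *rbp2a*, a retinol-binding protein, with 6474 and 2110. Outside the list, the retinol dehydrogenase genes *rdh8l* and *rdh1* were higher as well, the latter with 729 and 414 in the siblings but 418 and 729 in the mutants.

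The Hox genes, which pattern the body axis by paralog group from head to tail, had a median of 0.02 over 41 FL rows, with 1 higher and 2 lower. They divided by group, which was noticed after the values were seen. In groups 1 to 4, 10 of 12 FL rows lay below 0 (median -0.23), in groups 5 to 8, 7 of 12 (-0.06), and in groups 9 to 13, 3 of 17 (0.12). *hoxc1a* had 381 and 717 in the siblings and 363 and 562 in the mutants, and *hoxa11b* 1061 and 710, then 815 and 663. The lowest of all was *hoxa9a*, against the order, with 756 and 1567, then 829 and 1094. Between the mutants 8 of 12 rows of groups 1 to 4 lay below 0 (median -0.13) and 4 of 17 of groups 9 to 13 (0.18). Only 3 of these 41 rows were past the threshold, and with the authors' normalized columns the values lie lower by about 0.11, nearly as much as the median of groups 9 to 13.

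**Figure D5:**
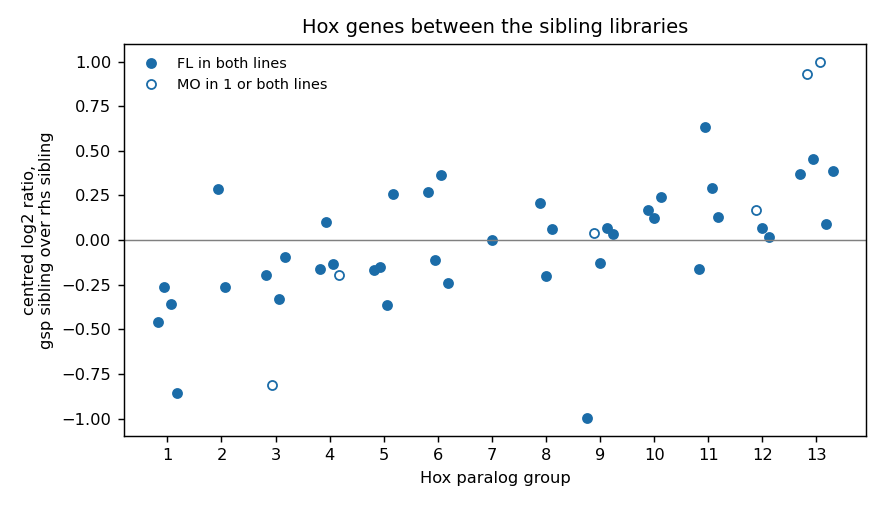
Centred log2 ratio of *gsp* siblings over *rhs* siblings (y axis) of each kept Hox gene by paralog group (x axis), filled where the row is labelled FL in both lines. In groups 1 to 4 most genes lie below 0 (10 of 12 FL rows) and in groups 9 to 13 most lie above it (all but 3 of 17), with *hoxa9a* as the lowest of all.

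Cytochrome P450 genes, of which the *cyp26* genes are part, had 3 higher and 8 lower of 30 FL rows and a median of 0.02. Of the 8 lower ones 6 recurred. Over all FL rows 5.11% were higher and 3.72% lower, and 55.8% of the lower ones kept in all 4 libraries recurred. *cyp2aa8* had 2857 and 6075 in the siblings and 764 and 11676 in the mutants, and its neighbour *cyp2aa9* had 2118 and 1419, then 731 and 2351, so that paralogs lay on opposite sides in the siblings. *cyp27c1*, which makes the visual chromophore precursor vitamin A2 in zebrafish, had 980 and 1817, then 1056 and 1790. Cortisol-responsive genes had 4 higher and 4 lower of 27 FL rows and a median of 0.05, and this list also holds *per1b*, *cry5* and *mt2*. *fkbp5*, a glucocorticoid-induced chaperone, had 5310 and 10403 in the siblings and 17461 and 19549 in the mutants. *pck1*, an enzyme of glucose synthesis, had 2106 and 1219, then 12970 and 15714. For both of these the mutants of either line lay above all siblings.

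Several other lists had medians near 0 between the siblings. The skeletal muscle sarcomere list had 4 higher and 5 lower of 56 FL rows with a median of 0.01, against 0.56 in the mutants. Synaptic genes had 3 higher and 1 lower of 42, with medians of 0.00 and 0.59, and liver plasma proteins 3 and 2 of 36, with -0.02 and -0.60. Genes of nuclear-coded oxidative phosphorylation had 0 higher and 1 lower of 49 rows and a median of 0.13, and ribosomal proteins 0 and 2 of 78 with -0.10. The shifts of these lists were small but leaned to 1 side, with 43 of the 49 rows above 0 and 67 of the 78 below it. The authors' normalized columns shift all ratios by -0.11, about as much as either median. The sarcomere, synaptic and liver medians thus lay near 0 between siblings and away from it between mutants.

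Some differences past 2-fold between the siblings were under the threshold between the mutants. The collagen chaperone gene *hsp47* had 36408 in *gsp* siblings and 11203 in *rhs* siblings, but 19039 and 16546 in the mutants, a centred log2 ratio of 1.75 in siblings and 0.21 in mutants, so that the siblings lay on either side of both mutants. *kera*, keratocan of the cornea, an MO row in *gsp*, had 21418 and 6657, then 5865 and 4719, and *nfkbiaa*, the inhibitor of NF-kappaB, also an MO row in *gsp*, 4489 and 1387, then 12203 and 8400, where the mutant ratio of 0.54 was just under the threshold. In the other direction *hspb9*, a small heat shock protein gene, had 1755 and 5236, then 1560 and 1455, where *rhs* siblings alone were high. *ucp3*, a mitochondrial carrier, had 261 and 743, then 1204 and 1563. Most differences of that size did recur. Over rows labelled FL in both lines, 59 of 78 higher rows (75.6%) and 46 of 63 lower ones (73.0%) recurred. Over rows of all labels kept in all 4 libraries, 650 of 697 rows higher past 2-fold (93.3%) and 488 of 530 lower ones (92.1%) recurred. Under the threshold in the mutants were 46 and 39 of them. Of these 46 and 39 rows, 13 higher and 21 lower ones had a gene name. How many of all rows past 2-fold had a gene name is not given, so no share is set beside these counts. The protocadherin *pcdh1g22*, at 2764 and 7957, then 3172 and 2660, was also one of the lower named genes, but its model on chromosome 10 overlaps 18 other rows.

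Every numbered chromosome had rows past the threshold. Among FL rows the share past the threshold ran from 6.05% on chromosome 13 to 11.4% on chromosome 12. Of 736 such rows, the next row along the chromosome that did not overlap was past the threshold in the same direction in 64 cases (8.70%) and in the opposite direction in 39 (5.30%). Over all FL rows 5.11% were higher and 3.72% lower. A next row in the same direction was more frequent than either share, and one in the opposite direction slightly so. This was not tested. The share past the threshold was larger at low values, with 19.8% of FL rows whose mean level lay between 100 and 300, 14% between 300 and 1000, 7.36% between 1000 and 3000 and 3.40% at 10000 or more.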

How the data were processed

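Total RNA of whole larvae at 48 hpf was sequenced in 4 libraries, 1 per group. The study's methods state that reads were trimmed, that TopHat aligned them, and that the authors took transcript values from DEGseq. The submitters' processing notes name the build danRer7. The deposited columns headed raw are called RPKM in the methods, but they are unscaled and floored at 1, and they were read here as estimated counts. Ratios between libraries are the same under either name, while counting intervals hold only for counts. The deposited normalized columns hold log2 values shifted per library by the authors. Tables of the authors' own fold changes were not used.

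Groups were taken from the sample labels. Rows with at least 100 in both siblings were kept, log2 ratios were centred on their median (-0.0536 in siblings, -0.0057 in mutants), and rows at 0.57 or more in either direction (the threshold), or at 2-fold, were counted. No test was run with 1 library per group. The labels FL and MO are those of the deposited transcript-type columns. The 52 gene lists, matched by symbol, and 1 list added later, as well as the members, were chosen with earlier results of these data known. Genes were named by rule: the 15 highest and lowest ratios, up to 4 per list, 8 per direction in siblings only, 8 per direction at 1 in the other line, and *myo5b*, *grhl3* and *cdh1*. Others named, such as *pklr*, *krt4*, *pcna*, *cdk1*, *gata1a*, *dla*, *cldne*, *cyp27c1*, *rdh1* and *cldn15a*, were chosen after their values were seen. A gene name table for zebrafish held 22438 of the 27423 identifiers. Values of 1 gene counted in the phototransduction list are not reported here. The code was tested on simulated data. Python 3.11.15, numpy 2.4.6, pandas 2.3.3, scipy 1.17.1 and matplotlib 3.10.9 were used.

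The alternatives were minimum values of 10, 30, 300 and 1000, no scaling, scaling by library totals, TMM scaling with trims of 30% (ratios) and 5% (levels), the authors' normalized columns, pseudocounts of 10 and 100, thresholds of 2-fold, 3-fold and 1.5 SD, 1 row per symbol, rows with a gene name only, and a minimum in all 4 libraries. Restriction to rows labelled FL or MO in both lines was chosen after seeing the data.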

Additional observations from a re-analysis of the deposited data

Results flagged for a closer look

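Among the genes named by rule and labelled FL in both lines, 4 were past the threshold of 0.57 one way between the siblings and the other way between the mutants, and this difference was not tested. The neuronal activity gene *npas4* had a centred log2 ratio of -0.93 in siblings (112 in *gsp*, 222 in *rhs*) and 2.32 in mutants (1046 and 211), with *gsp* mutants alone high. The protocadherin *pcdh1a3* had -1.25 and 0.63 (511 and 1265, then 1034 and 669), and its model overlaps 7 other rows. The ribosomal protein gene *rps8b* had -0.79 and 0.66, on values between 135 and 254. The fin fold gene *and1*, an actinodin of the fin ray fibres, had 0.59 and -0.75 (76319 and 52474, then 35298 and 59753), with *gsp* mutants the lowest.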

How the results depend on the processing

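No paired analysis was possible because each group had 1 library, and for the same reason no library could be left out. The main counts of 1458 higher and 1191 lower became 499 and 448 at a minimum of 1000, 764 and 557 at 2-fold, 423 and 245 at 3-fold, 663 and 458 at 1.5 SD, 688 and 580 with gene names only, 430 and 313 over rows labelled FL in both lines and 839 and 723 over those labelled MO. All of these settings keep fewer rows or use a stricter threshold. The share past the threshold also differed by label, with 8.83% of FL rows and 35.8% of MO rows, beside 19.0% of all rows. The SD of the sibling ratios, 0.753 over all rows, was 0.437 at a minimum of 1000, 0.358 over FL rows and 1.18 over MO rows. The share of higher rows that recurred, 74.2%, was 49.1% over FL rows. Of the 52 lists 4 had a median of 0.2 or more and 6 of -0.2 or less. The authors' normalized columns gave 2 and 10, since they shift every ratio by -0.11, and FL rows gave 8 of 0.2 or more. A change of sign was counted only for lists with a main median of at least 0.2 in either direction. Among these, the pineal list changed sign at minimum values of 10 and 30 (0.48 in both). Odorant and taste receptors did so at 10 (0.20), 30 (0.18) and in FL rows (0.22). These are lists of 4 and 2 kept rows. Of the other list medians over all alternatives, 806 moved by 0.1 or less and 71 by more. Medians nearer 0 are among these and some changed sign too. Pigment cells, for example, had 0.01 over all rows and -0.13 over FL rows. A changed threshold could not move a list median, and a changed scaling shifted all of them together. The counts of 806 and 71 therefore depend largely on the settings tried. The 235 genes tried here were named by rule or chosen after their values were seen. Of their values 2580 stayed within the counting interval of the main value and 234 moved beyond it. None past the threshold changed sign, but the settings tried on single genes could hardly have reversed one. They only re-centred all ratios together or added a pseudocount.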

Other observations

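Of 13 FL rows with a gene name past the threshold in opposite directions, those besides the 4 above were not named by rule. Of these, 4 were chosen after their values were seen. The fast muscle myosin genes *myhz1.1* (128934 in *gsp* siblings, 206769 in *rhs* siblings, 230677 in *gsp* mutants and 118267 in *rhs* mutants) and *myhc4* (18895 and 33730, then 34066 and 16602) were lower in *gsp* siblings and higher in *gsp* mutants. They have near-identical copies, and how reads were divided among them is not given. *pdzk1ip1l* had 231 and 865 in the siblings and 271 and 142 in the mutants, with *rhs* siblings alone high. The small nuclear RNA *rn7sk*, which holds back transcription elongation, had 340 and 216, then 292 and 3682, with *rhs* mutants alone high. These differences were not tested.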
